A study of Homo sapiens with 4 samples.

Results

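The genes described here are 10 regulators and markers of the epithelial-mesenchymal state, taken by symbol from 26255 genes: ZEB1, SNAI1, SNAI2 and VIM on the mesenchymal side, and CDH1, EPCAM, GRHL1, GRHL2, ESRP1 and OVOL1 on the epithelial side. All 10 were listed in each of the 4 libraries. RNA was sequenced from HCT116, an established human colorectal cancer line of epithelial type, in 2 libraries of C14orf159 knockout cells (KO 1 and KO 2) and 2 of control cells (EV control 1 and 2). The controls carried an empty vector per the labels, while their columns are headed AAVS1, a site often targeted as a neutral control, and the KO columns sgDGLUCY, after the current name of C14orf159. The labels give no treatment, and do not say whether a KO library is a clone or a pool, or whether replicates came from separate cultures, so the p-values reflect library-to-library spread, which may be technical. The study asked why this mitochondrial matrix protein lowers migration, invasion and spheroid growth.

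Epithelial cells adhere through E-cadherin and keep their identity through factors such as the grainyhead-like and OVOL proteins and the ESRP splicing factors. In epithelial-mesenchymal transition (EMT), repressors of the ZEB and SNAI families bind E-box letters in the promoters of epithelial genes, E-cadherin is lost and vimentin is gained. The programme is reversible, and carcinoma cells can hold states in between that are tied to migration and invasion.

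The targeted gene, C14orf159, stood at 16.2 and 16.4 FPKM (fragments for each kilobase of transcript and each M, or mega, of fragments) in EV control 1 and 2, at 2.52 in KO 1 and at 10.8 in KO 2, lower in both KO libraries but unequally so. Depth was estimated at 12.5 to 13.4 M fragments per library. The spread of log2 ratios (robust SD, 2118 genes of 30 to 100 FPKM) was 0.079 for the pair of EV controls, 0.21 for the KO pair and 0.19 to 0.22 across groups. All 5 epithelial markers (EPCAM, CDH1, KRT8, KRT18 and KRT19) were expressed, with a summed level of 3362 to 3535 FPKM in the EV controls and 3342 to 3704 in the KO libraries. The 7 fibroblast, 4 endothelial and 4 leukocyte markers each summed to under 1 FPKM in every library, and COL1A2, DCN, LUM, FAP, PTPRC and CD3E were at 0 in all.

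The sequence just before a gene's start is where such factors can bind, and it was read for the members that the table of RefSeq promoters holds. That table (GRCh38.p14) had an entry for 3 of the 10 members, ZEB1, VIM and GRHL1, with 7 start sites for ZEB1. The 250 bases before the start are shown for GRHL1, the member with the largest difference, and for VIM and ZEB1, the mesenchymal members at the lowest levels that have an entry. Capitals mark the E-box letters CACCTG or CAGGTG, which ZEB and SNAI factors recognise, and the CCAAT box (CCAAT or ATTGG). The third motif searched, the grainyhead core AACCGGTT, is its own reverse complement and was not found in these windows, so no capitals mark it. All motifs were searched on both strands, and none of the matches overlapped.
GRHL1, chr2:9951443-9951692, plus strand: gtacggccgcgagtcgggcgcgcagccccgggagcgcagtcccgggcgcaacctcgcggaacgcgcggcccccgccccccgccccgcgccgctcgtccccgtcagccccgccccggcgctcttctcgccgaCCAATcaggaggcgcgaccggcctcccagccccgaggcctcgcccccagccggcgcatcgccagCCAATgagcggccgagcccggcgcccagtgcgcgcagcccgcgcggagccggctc
VIM, chr10:17227991-17228240, plus strand: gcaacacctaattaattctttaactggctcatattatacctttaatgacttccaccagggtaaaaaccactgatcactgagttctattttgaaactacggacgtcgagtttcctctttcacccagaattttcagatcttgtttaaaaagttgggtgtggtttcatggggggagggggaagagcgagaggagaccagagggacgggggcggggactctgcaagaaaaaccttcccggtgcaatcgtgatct
ZEB1, most upstream start, chr10:31318167-31318416, plus strand: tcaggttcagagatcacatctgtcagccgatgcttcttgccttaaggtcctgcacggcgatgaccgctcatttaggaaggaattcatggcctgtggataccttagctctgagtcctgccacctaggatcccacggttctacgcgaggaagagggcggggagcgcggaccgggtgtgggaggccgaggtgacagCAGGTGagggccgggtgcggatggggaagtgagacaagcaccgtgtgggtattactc

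The GRHL1 window was 81.6% G and C with 45 CpG dinucleotides, the ZEB1 window 59.2% with 15, and the VIM window 46.0% with 8. GRHL1 held the letters CCAAT at -119 to -115 and again at -55 to -51 bases, counted back from the start. A CCAAT box stood in 32.0% of all 35116 promoter windows of this length, so its presence is common. The ZEB1 window held the E-box CAGGTG at -57 to -52. Another ZEB1 start site, not shown, had CACCTG at -242 to -237 and CAGGTG at -85 to -80. The remaining ZEB1 start sites, of 7 in all, matched none of the motifs searched. An E-box stood in 17.5% of all windows and the grainyhead core in 0.117%. These shares are per window, and a gene with 7 windows has more places for a match. The VIM window matched none of the motifs searched, and sequence around any other VIM start was not read. These matches describe letters in a window and show no binding. The ZEB1 and VIM windows lie within the antisense genes ZEB1-AS1 and VIM-AS1 in the GENCODE annotation of the same assembly.

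The members covered a wide range of levels, with SNAI1 the sole mesenchymal member above 1 FPKM. In bulk RNA, fewer cells that express a gene and less RNA in each cell cannot be told apart. FPKM is scaled for transcript length, so levels of different genes can be set side by side. By EV control mean, EPCAM was highest at 236 FPKM, followed by ESRP1 at 55.4 and CDH1 at 22.8. GRHL2 (8.80 FPKM), SNAI1 (5.92), OVOL1 (4.80) and GRHL1 (2.32) lay in the middle. ZEB1 (0.515 FPKM), VIM (0.387) and SNAI2 (0.0888) lay under 1 FPKM. No neighbours in this order overlapped in the EV controls, and the closest were VIM at its higher value (0.462) and ZEB1 at its lower (0.504). In the KO libraries the order changed in places, with GRHL1 close to SNAI1 and OVOL1 in KO 1 (5.52, 5.63 and 5.63 FPKM).

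**Figure D1:**
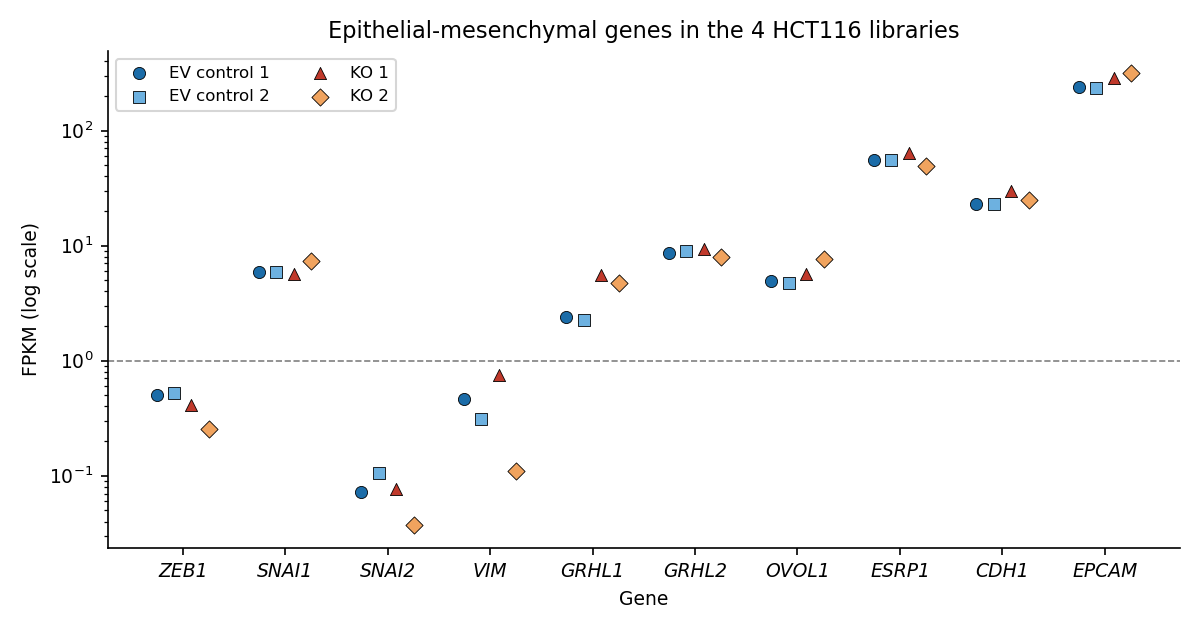
FPKM on a log axis for the 10 genes, with 1 point per library (EV control 1 and 2, KO 1 and 2) and the dashed line at 1 FPKM, the minimum level for testing. ZEB1, SNAI2 and VIM lie under the line in all 4 libraries, while EPCAM lies between 236 and 314 FPKM.

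The comparison of KO with EV control was fitted on log2(FPKM + 1), a scale that understates changes of low genes, over 12701 genes with at least 1 FPKM in at least 2 libraries. Of the 10 members, 7 passed this minimum, and each of the 7 was above 1 FPKM in all 4 libraries. ZEB1, SNAI2 and VIM did not pass it and were not tested. Adjusted over all genes, 0 of the 7 tested members were higher and 0 lower (limma-trend, Benjamini-Hochberg adjusted p under 0.05). Of all tested genes, 0.0551% were called higher and 0.0551% lower, but 0 and 0 genes in a fit without small RNA genes. With an unadjusted p under 0.05, GRHL1 and EPCAM were higher and no member lower, against 9.23% and 7.22% of all tested genes. GRHL1, EPCAM, OVOL1 and CDH1 lay above both EV controls in both KO libraries, as did 26.5% of tested genes. No tested member lay below both EV controls in both KO libraries, where 25.6% of genes did. For SNAI1, GRHL2 and ESRP1 the KO libraries lay on opposite sides of both EV controls, as in 22.8% of genes. The median difference of the 7 members was 0.24 on the log2 scale, beside 0.0031 over all tested genes. The members were chosen with earlier results of these data known, so these contrasts with all genes are descriptive only.

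The grainyhead factor gene GRHL1 differed most. It stood at 2.38 and 2.26 FPKM in EV control 1 and 2, at 5.52 in KO 1 and at 4.72 in KO 2. Both KO libraries were high, both controls were low, and the groups did not overlap. KO cells had 221% of the EV control level in FPKM, and the log2(FPKM + 1) difference was 0.88 (SE 0.12, limma-trend, adjusted p = 0.134). The difference was 0.97 for KO 1 and 0.78 for KO 2. These values rest on an estimated 110 and 108 fragments in the EV controls and 245 and 216 in KO 1 and KO 2. Of all tested genes, 0.890% had a difference at least as high. GRHL1 was the sole member more than 1.5-fold higher on this scale, and it was so in both KO libraries, where 3.49% of tested genes were higher by that much in KO 1 and 4.38% in KO 2. No tested member was lower by that much in either, where 2.32% and 2.46% of genes were.

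Its paralogue GRHL2, which holds CDH1 and other junction genes in an active state in many epithelia, gave another picture. It stood at 8.58 and 9.02 FPKM in the EV controls, at 9.27 in KO 1 and at 7.97 in KO 2. KO 1 was the highest and KO 2 the lowest of the 4 libraries. The difference between the groups was -0.03 (SE 0.10, limma-trend, adjusted p = 0.906). The third paralogue, GRHL3, had 0.180 and 0.236 FPKM in the EV controls, 0.253 in KO 1 and 1.47 in KO 2, and did not reach the minimum for testing.

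OVOL1 encodes a zinc finger repressor that restrains mesenchymal genes, ZEB1 among them. It stood at 4.90 and 4.70 FPKM in the EV controls, at 5.63 in KO 1 and at 7.58 in KO 2. Both KO libraries lay above both controls, KO 2 furthest. The difference was 0.38 (SE 0.15, limma-trend, adjusted p = 0.311), with 0.19 in KO 1 and 0.57 in KO 2. OVOL1-AS1, which lies antisense within the same locus, was listed at 1.22 and 0 FPKM in the EV controls and at 0.216 and 0 in KO 1 and KO 2.

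ESRP1 encodes an RNA-binding protein that sets epithelial splice patterns. It stood at 54.9 and 55.9 FPKM in the EV controls, at 64.3 in KO 1 and at 48.7 in KO 2. KO 1 lay above both controls and KO 2 below both, so the group means of 55.4 ± 0.663 and 56.5 ± 11.0 FPKM (SD, n = 2 each) nearly coincide. The difference was 0.02 (SE 0.15, limma-trend, adjusted p = 0.966). Its paralogue ESRP2 had 16.0 and 16.1 FPKM in the EV controls and 15.5 and 16.4 in KO 1 and KO 2. Gene-level FPKM holds no information on splice forms.

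CDH1, the E-cadherin gene and the classical target of the EMT repressors, stood at 22.8 and 22.9 FPKM in the EV controls, at 29.5 in KO 1 and at 24.8 in KO 2. Both KO libraries lay above both controls, KO 1 furthest. The difference was 0.24 (SE 0.11, limma-trend, adjusted p = 0.350), with 0.36 in KO 1 and 0.12 in KO 2.

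EPCAM, the gene of an epithelial adhesion glycoprotein widely used to mark carcinoma cells, stood at 237 and 236 FPKM in the EV controls, at 284 in KO 1 and at 314 in KO 2. Both KO libraries were again above both controls. KO cells had 126% of the EV control level in FPKM, with a difference of 0.34 on the log2 scale (SE 0.096, limma-trend, adjusted p = 0.238). Of all tested genes, 9.29% had a difference at least as high.

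**Figure D2:**
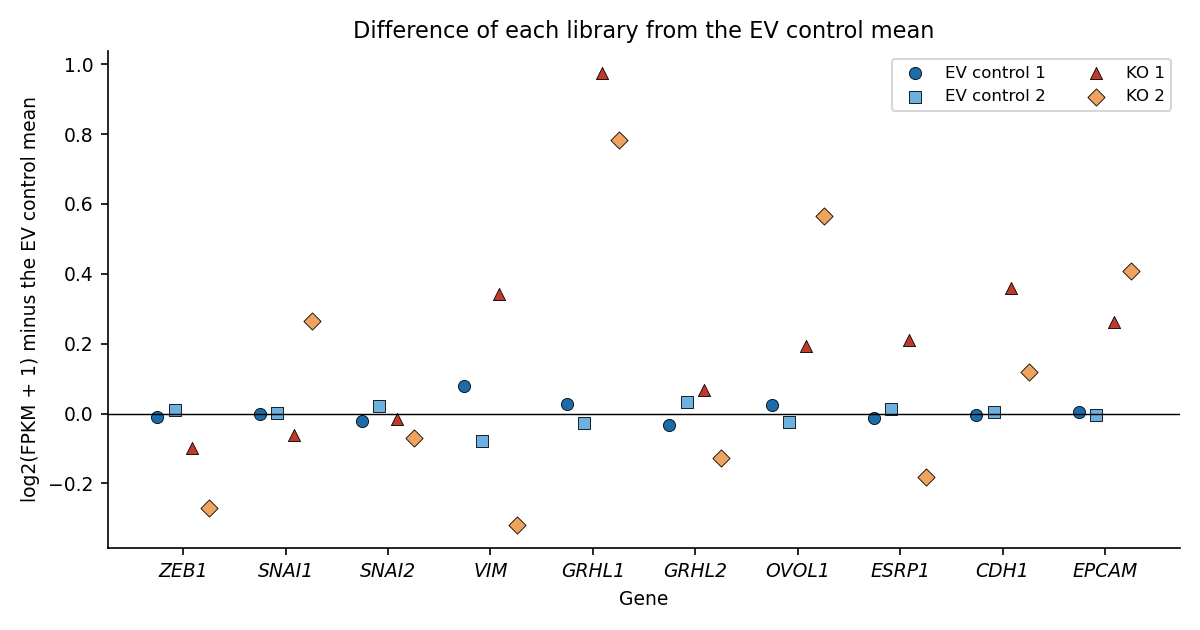
Difference of each library from the EV control mean on the log2(FPKM + 1) scale for the 10 genes, 1 point per library. GRHL1 shows 0.97 in KO 1 and 0.78 in KO 2, whereas for ESRP1, VIM, GRHL2 and SNAI1 the KO libraries lie on opposite sides of the controls.

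Among the mesenchymal regulators, SNAI1, a zinc finger repressor of CDH1, was the sole member tested. It stood at 5.90 and 5.93 FPKM in the EV controls, at 5.63 in KO 1 and at 7.31 in KO 2. KO 1 was slightly below both controls and KO 2 above both. The difference was 0.10 (SE 0.14, limma-trend, adjusted p = 0.726). SNAI1 protein, which is short-lived and regulated in part by degradation, was not measured, so its level is not known from these transcript values.

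ZEB1 encodes the zinc finger homeobox repressor that, with the miR-200 family, forms a mutual repression loop. It stood at 0.504 and 0.526 FPKM in the EV controls, at 0.415 in KO 1 and at 0.256 in KO 2. Its longest coding transcript gives rough estimates of 41.0, 44.2, 32.4 and 20.6 fragments. Both KO libraries lay below both controls, at 80.5% and 49.8% of the EV control mean. In a fit with no filter on low values the difference was -0.18 on the log2(FPKM + 1) scale and did not pass (limma-trend, adjusted p = 0.420). The antisense gene ZEB1-AS1, which starts beside ZEB1, had 1.78 and 2.30 FPKM in the EV controls and 1.49 and 1.44 in KO 1 and KO 2. Reads of a gene and of its antisense partner can be told apart only if strand was used in counting, and the sources used here do not state that. This touches ZEB1, VIM and OVOL1.

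VIM, the gene of the intermediate filament vimentin and the usual mesenchymal marker, stood at 0.462 and 0.312 FPKM in the EV controls, at 0.754 in KO 1 and at 0.110 in KO 2. KO 1 was the highest library and KO 2 the lowest. Divided by the relative value of 1 fragment in each library, these values stood in the ratio of the whole numbers 13, 9, 20 and 3, within 0.05. The longest coding transcript gives estimates of 12.8, 8.9, 20.1 and 3.0 fragments. Taken as fragments, the whole numbers have exact Poisson intervals (95%, for counting error only) of 12.22 to 30.89 in KO 1 and 0.62 to 8.77 in KO 2. Those intervals do not meet, while those of the EV controls, 6.92 to 22.23 and 4.12 to 17.08, overlap both. VIM-AS1 had 0.060 and 0.058 FPKM in the EV controls and 0.191 and 0.185 in KO 1 and KO 2.

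SNAI2, the SNAI1 paralogue also known as Slug, was hardly detected. It stood at 0.0721 and 0.105 FPKM in the EV controls, at 0.0765 in KO 1 and at 0.0371 in KO 2. These values are in the ratio of 2, 3, 2 and 1 fragments, with the same rule. At this depth no difference in SNAI2 was detectable.

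**Figure D3:**
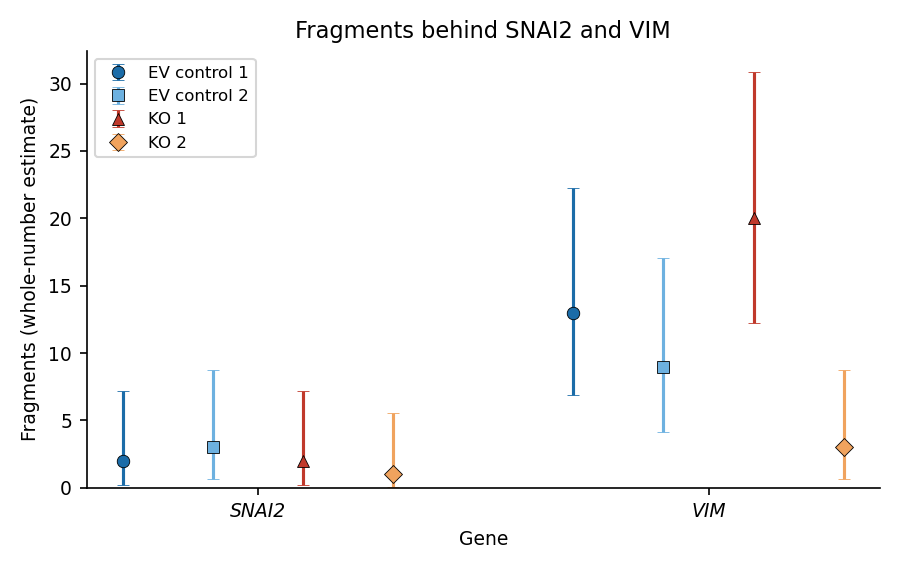
Fragments behind SNAI2 and VIM in each library, as whole-number estimates with exact Poisson 95% intervals for counting error. VIM shows 20 fragments in KO 1 and 3 in KO 2, with the EV controls at 13 and 9, while all SNAI2 values are between 1 and 3.

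The KO libraries were next compared with each other, since each was to be read alone as well. All 7 tested members were further apart between KO 1 and KO 2 than between the EV controls, as were 73.4% of all tested genes. The KO libraries differed by -0.39 for ESRP1, -0.24 for CDH1 and -0.19 for both GRHL1 and GRHL2 (KO 2 minus KO 1, log2 scale). For OVOL1 (0.37), SNAI1 (0.33) and EPCAM (0.15) KO 2 was the higher. Fitted alone against the EV controls, KO 1 had CDH1, EPCAM and GRHL1 higher (limma-trend, adjusted p = 0.0284, 0.0369 and 0.0123), where 6.29% of tested genes were called higher. KO 2 alone had EPCAM, GRHL1 and OVOL1 higher (adjusted p = 0.0149, 0.0181 and 0.0241), where 10.9% were. No member was called lower in either fit, where 6.94% and 6.62% of genes were. In these fits the lone KO library is assumed to vary like the EV controls, although KO libraries were wider apart in the data. The median gap in size was 0.17 between the KO libraries and 0.073 between the EV controls.

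**Figure D4:**
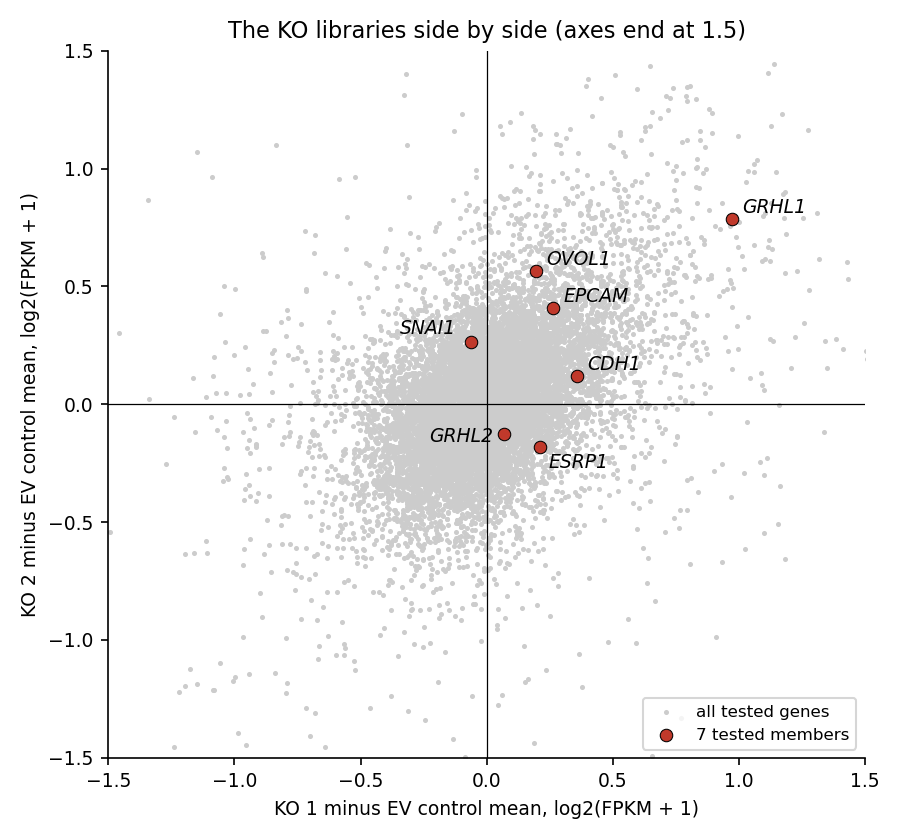
Difference from the EV control mean in KO 1 (x axis) and KO 2 (y axis), log2(FPKM + 1), with the 7 tested members in red over all tested genes in grey (120 genes lie beyond the axes). GRHL1, OVOL1, EPCAM and CDH1 lie in the upper right, ESRP1 and GRHL2 in the lower right and SNAI1 in the upper left.

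Genes whose pattern over the 4 libraries lay nearest to that of GRHL1, by Euclidean distance of log2(FPKM + 1) from the EV control mean, were FER1L4 (distance 0.082), SLC39A8 (0.107) and APOBEC3B (0.111). FER1L4, a non-coding relative of the ferlin genes, had 2.12 and 1.97 FPKM in the EV controls and 4.82 and 4.50 in KO 1 and KO 2. The zinc transporter gene SLC39A8 had 8.62, 7.58, 16.0 and 14.4 FPKM in the same order. The cytidine deaminase gene APOBEC3B had 4.74, 5.15, 10.6 and 9.02 FPKM, which is uncertain because its close paralogues can share reads. None of these passed over all genes (limma-trend, adjusted p = 0.125, 0.134 and 0.134).

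Gene lists around the members were then read as counts. No gene on any of them passed over all genes tested (limma-trend), so the values below describe position. The shares of all tested genes stand beside the counts, and no list was tested against them. The lists, too, were chosen with earlier results of these data known. List medians are log2 differences, also given for KO 1 and KO 2 alone, beside 0.0031 over all tested genes (-0.0043 in KO 1 and 0.014 in KO 2). Of 28 tested epithelial genes that EMT represses, 14 lay above both EV controls in both KO libraries and 4 below (26.5% and 25.6% of all tested genes). The median difference was 0.12, with 0.12 in KO 1 and 0.11 in KO 2. At an unadjusted p under 0.05, 7 were higher and 2 lower (9.23% and 7.22% of all tested genes). The claudin gene CLDN3 had 10.4 and 9.58 FPKM in the EV controls and 19.4 and 23.4 in KO 1 and KO 2 (adjusted p = 0.120). CLDN4, of the same family, had 115, 105, 171 and 142 FPKM (adjusted p = 0.208). The polarity gene CRB3 had 21.6, 19.6, 30.1 and 26.7 FPKM (adjusted p = 0.205). The plakin family gene EPPK1 went the other way, with 6.18, 6.10, 4.71 and 4.74 FPKM (adjusted p = 0.232). EPPK1 was chosen after its values were seen.

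Of 30 mesenchymal markers, 13 were tested, and 6 of these lay above both EV controls in both KO libraries and 2 below (26.5% and 25.6% of all tested genes). The median difference was 0.18, with 0.095 in KO 1 and 0.14 in KO 2. At an unadjusted p under 0.05, 3 were higher and 1 lower (9.23% and 7.22% of all tested genes). LOXL2, a lysyl oxidase family enzyme gene, had 5.22 and 4.50 FPKM in the EV controls and 8.80 and 7.76 in KO 1 and KO 2 (limma-trend, adjusted p = 0.175). The tropomyosin gene TPM1 had 14.1, 13.4, 20.0 and 18.6 FPKM (adjusted p = 0.183). The collagen gene COL1A1 had 4.54, 4.61, 6.43 and 7.15 FPKM (adjusted p = 0.190). The actin-binding gene CALD1 lay below both controls in both KO libraries, with 37.4, 40.2, 33.5 and 28.5 FPKM (adjusted p = 0.277), and was chosen after its values were seen. CDH2, the N-cadherin gene that replaces CDH1 in EMT, had 0.0399 FPKM in KO 1 and 0.0194 in KO 2 and was listed at 0 in the EV controls. Both values were under those of SNAI2 in the same libraries (0.0765 and 0.0371 FPKM), a gene hardly detected. CDH2 did not reach the minimum for testing, and no difference can be read at this level.

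Of 15 other EMT-inducing factors, 6 were tested, with 2 above and 0 below the EV controls in both KO libraries (26.5% and 25.6% of all tested genes). These had a median difference of 0.21, with 0.39 in KO 1 and -0.0095 in KO 2. An unadjusted p under 0.05 fell on 1 gene, which was higher, where 9.23% of all tested genes were. That was the forkhead factor gene FOXC1, with 9.27 and 9.21 FPKM in the EV controls and 14.9 and 19.1 in KO 1 and KO 2 (limma-trend, adjusted p = 0.171). SNAI3 had 1.82, 1.73, 2.08 and 2.30 FPKM (adjusted p = 0.461). HMGA2, a chromatin protein gene, had 55.4 and 57.4 FPKM in the EV controls, 80.2 in KO 1 and 54.7 in KO 2 (adjusted p = 0.576). ZEB2, TWIST2, PRRX1, TCF4 and GSC were listed at 0 in all 4 libraries.

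Of 18 other epithelial transcription and splicing factors, 10 were tested, with 2 above and 3 below the EV controls in both KO libraries (26.5% and 25.6% of all tested genes), shares near those of all genes. At an unadjusted p under 0.05, 1 was lower, where 7.22% of all tested genes were. Their median difference was -0.04, with -0.14 in KO 1 and 0.07 in KO 2. The ETS factor gene EHF had 11.8 and 12.4 FPKM in the EV controls and 10.2 and 9.11 in KO 1 and KO 2 (limma-trend, adjusted p = 0.257). TFCP2L1, of the wider grainyhead superfamily, had 1.95, 2.06, 2.71 and 2.49 FPKM (adjusted p = 0.346). The intestinal homeobox gene CDX2 had 9.69, 8.79, 8.01 and 10.2 FPKM, with the KO libraries on opposite sides of the controls. CDX2 was chosen after its values were seen.

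Among 14 tested genes of the E-cadherin complex and adherens junction, 5 lay above and 4 below the EV controls in both KO libraries (26.5% and 25.6% of all tested genes), and an unadjusted p under 0.05 fell on 2 higher and 1 lower genes (9.23% and 7.22% of all tested genes). Their median difference was 0.0013, with 0.10 in KO 1 and -0.0095 in KO 2. The nectin gene PVRL2 had 32.2 and 30.4 FPKM in the EV controls and 36.2 and 38.9 in KO 1 and KO 2 (limma-trend, adjusted p = 0.266). CBLL1, the gene of an E-cadherin ubiquitin ligase, had 12.0, 11.5, 10.1 and 9.76 FPKM (adjusted p = 0.293).

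Of 16 tested corepressor genes used by ZEB1 or SNAI1, 3 lay above and 8 below the EV controls in both KO libraries (26.5% and 25.6% of all tested genes). The median difference was -0.07, with -0.08 in KO 1 and -0.04 in KO 2. An unadjusted p under 0.05 fell on 0 higher and 2 lower genes (9.23% and 7.22% of all tested genes). The lower genes were the scaffold gene SIN3A, with 18.3 and 19.4 FPKM in the EV controls and 15.7 and 14.7 in KO 1 and KO 2 (limma-trend, adjusted p = 0.241), and RCOR1, with 8.79, 9.67, 7.53 and 7.69 FPKM (adjusted p = 0.294). LIMD1 had 6.93, 7.44, 6.13 and 5.72 FPKM (adjusted p = 0.309). Of 9 tested genes for SNAI1 and ZEB1 protein turnover, 2 lay above and 4 below (26.5% and 25.6% of all tested genes), and an unadjusted p under 0.05 fell on 2 higher and 0 lower genes (9.23% and 7.22% of all tested genes). Their median difference was 0.0038, with -0.02 in KO 1 and -0.03 in KO 2. The kinase gene PAK1 had 19.7, 20.0, 23.4 and 23.6 FPKM (adjusted p = 0.265), and the F-box gene FBXL5 7.82, 8.01, 10.5 and 9.05 (adjusted p = 0.300). SIAH1, a ubiquitin ligase gene, had 12.9, 15.0, 10.9 and 12.0 FPKM (adjusted p = 0.325).

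Of 9 tested genes whose transcripts ESRP proteins splice, 2 lay above and 4 below the EV controls in both KO libraries (26.5% and 25.6% of all tested genes), and an unadjusted p under 0.05 fell on 2 higher and 1 lower genes (9.23% and 7.22% of all tested genes). Their median difference was -0.03, with 0.11 in KO 1 and -0.07 in KO 2. The growth factor receptor gene FGFR2 had 4.83 and 4.53 FPKM in the EV controls and 6.81 and 5.87 in KO 1 and KO 2 (limma-trend, adjusted p = 0.245). The kinase gene SLK had 14.3, 14.9, 20.1 and 16.9 FPKM (adjusted p = 0.277) and the exocyst gene EXOC7 46.4, 47.8, 42.1 and 38.5 (adjusted p = 0.299). Of 7 tested splicing factors of the mesenchymal programme, 0 lay above and 5 below in both KO libraries (26.5% and 25.6% of all tested genes). The median difference was -0.14, with -0.18 in KO 1 and -0.17 in KO 2. An unadjusted p under 0.05 fell on 0 higher and 1 lower genes (9.23% and 7.22% of all tested genes). HNRNPM, which acts against ESRP1 on shared targets, had 193, 193, 158 and 171 FPKM (adjusted p = 0.298). SRSF1 had 115, 119, 103 and 102 FPKM (adjusted p = 0.323), and QKI 2.53, 2.58, 1.98 and 1.99 (adjusted p = 0.344).

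**Figure D5:**
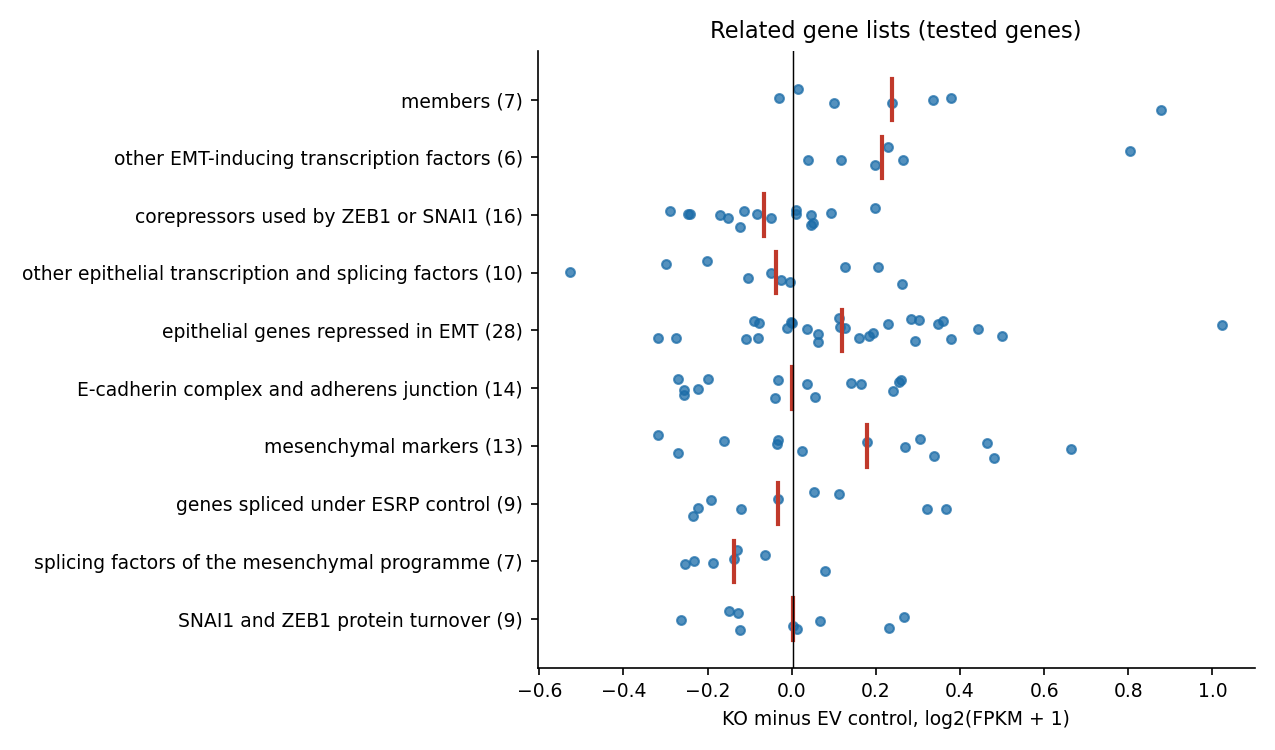
KO minus EV control on the log2(FPKM + 1) scale for the tested genes of each list (number tested in brackets), 1 point per gene, with the list's median as a red bar and the median of all tested genes as a black line. The medians run from -0.14 for the splicing factors of the mesenchymal programme to 0.21 for the other EMT-inducing factors and 0.24 for the members, with the mesenchymal markers at 0.18 and the epithelial genes at 0.12.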

How the data were processed

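RNA was taken with the miRNeasy kit and libraries with the TruSeq stranded mRNA kit, per the labels' protocols. TopHat2 2.0.13, Bowtie2 2.2.3, SAMtools 0.1.19, Cuffnorm 2.2.1 and build hg19 were used, per the submitters' processing notes. The deposited values were taken as FPKM per gene symbol, from the use of Cuffnorm, since the headers give the library name alone. The sources used here do not state the gene annotation, the strand setting or the scaling between libraries.

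Genes with at least 1 FPKM in at least 2 libraries (12701 of 26255) were fitted as log2(FPKM + 1) with limma 3.58.1 (lmFit, eBayes with trend) in R 4.3.3, group as the sole term, with Benjamini-Hochberg adjustment over all of them. The fit was tested on simulated data in which every library had the spread of the EV control pair. The KO libraries were wider apart in the data, so that test does not cover their spread. Differences are KO minus EV control. A gene is called above or below when both KO libraries lie outside both EV controls. The 10 members and all lists were chosen with earlier results of these data known. Named genes were the members, up to 3 per list with the smallest p-value, and the 3 nearest to a member past 1.5-fold. GRHL3, ESRP2 and CDH2, relatives of members, were named after their values were seen, as were the exceptions marked in the text, and a few genes that the rule names are not reported here.

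Depth was estimated from 2008 genes with a single transcript of 1000 to 6000 nt in GENCODE release 29. FPKM times length in kilobases was taken, and the median of products between 0.06 and 0.1 was read as 1 fragment. The window bounds this value, so depths are rough. Estimated fragments of a member use its longest coding transcript. Whole-number ratios for low genes used the relative values of 1 fragment alone (0.974, 1.06 and 1.03 against EV control 1 for EV control 2, KO 1 and KO 2). They were sought for SNAI2, VIM and ZEB1, and none was found for ZEB1, so its estimated fragments rest on transcript length alone. Promoter sequences are from RefSeq, and no hg19 coordinates are given.

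Alternatives were 2 further pseudocounts, 2 further filters, 2 scalings, limma without trend, a replicate block, a fit without small RNA genes, and leaving out each library.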

Additional observations from a re-analysis of the deposited data

How the results depend on the processing

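The count of members called, 0 in each direction, was the same under every alternative except without KO replicate 1 or without KO replicate 2, where 3 members were higher; over the fits that leave out a library the count of higher members ranged from 0 to 3. Over all genes, 7 were higher and 7 lower. No filter on low values gave 3 higher and 3 lower, and limma without trend 3 higher. Quantile normalization gave 4 lower, and the fit without small RNA genes 0 higher and 0 lower. Leaving out a library gave 6 to 1381 higher and 5 to 881 lower genes, the large counts coming from the fits with a lone KO library. With a replicate block, 4 genes were higher, and no member's side of the threshold changed; same-numbered libraries did not deviate together (correlation -0.0046), so the numbers were not taken to pair the samples. The adjusted p of GRHL1 was 0.0920 to 0.279 over the 8 settings that keep all libraries and could be fitted for it (KO 1 alone reaches the filter of 5 FPKM), and 0.0123 to 0.986 over the fits that leave out a library. Its log2 difference kept its direction in all of these, and so did those of EPCAM, OVOL1 and CDH1. For these genes both KO libraries lay above both EV controls, so leaving out a library could not turn the direction. Direction turned when a library was left out for SNAI1 (-0.061 without KO replicate 2, up to 0.264), GRHL2 (0.068 when KO replicate 2 was left out and 0.0032 when EV control replicate 2 was, down to -0.126), ESRP1 (-0.181 without KO replicate 1, up to 0.211) and HMGA2 (-0.043 without KO replicate 1, up to 0.5004). For each of these genes the KO libraries lay on opposite sides of both EV controls. A fit with a lone KO library therefore took that library's direction. Why the KO libraries differed was not tested. Low depth limits ZEB1, VIM and SNAI2.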

Other observations

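Several low or variable genes of the lists separated KO 1 from KO 2 with the EV controls between or near them, and were chosen after their values were seen. TWIST1, an EMT-inducing factor gene, had 0.188 and 0.321 FPKM in EV control 1 and 2, 1.45 in KO 1, and was listed at 0 in KO 2. FN1, the fibronectin gene, had 0.913 and 0.753 FPKM in the EV controls, 2.14 in KO 1 and 0.471 in KO 2. SOX4, a factor active in EMT, had 24.5 and 23.5 FPKM in the EV controls, 55.8 in KO 1 and 14.9 in KO 2. Like VIM, all of these were highest in KO 1 and lowest in KO 2. Of the tested genes with the KO libraries on opposite sides of the controls, 1273 were higher in KO 1 and 1624 in KO 2.

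MicroRNA genes of the ZEB1 loop cannot be read in these libraries. MIR200A was listed at 233 FPKM in EV control 2 and at 0 in the others, and MIR200B, MIR200C, MIR141, MIR429 and MIR205 were listed at 0 in all. A very short gene gets a high FPKM from few fragments, and the kit selects polyadenylated RNA, so these values do not measure mature microRNAs.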
